A study of Homo sapiens with 18 samples.

Results

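Midkine (*MDK*) is a small secreted growth factor that binds heparin. Pleiotrophin (*PTN*) is the other member of its family, and both signal through a set of cell surface proteins that they share. These are the low-density lipoprotein receptor-related protein LRP1, the receptor tyrosine kinase ALK, the receptor-type phosphatase PTPRZ1, and proteoglycans of the syndecan and glypican families, which hold midkine through their heparan sulfate chains. Midkine is abundant in the embryo, falls to low levels in most adult tissues and returns in many tumors, and it has been linked to growth, migration and drug resistance in leukemia. The genes described here are these 9: *MDK*, *PTN*, *LRP1*, *ALK*, *PTPRZ1*, *SDC1*, *SDC3*, *SDC4* and *GPC2*, of 26941 genes counted in all. They were found by symbol, and each gene was read from its RefSeq transcript with the most counts in all 18 samples. *MDK* was chosen by its lower values after *SOX11* knockdown in every line, so its response to the knockdown is described without a test.

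RNA was sequenced from 3 established cell lines grown from B-cell precursor acute lymphoblastic leukemia. The lines are REH, 697 and RCH-ACV. Each line was transfected by nucleofection with siRNA against *SOX11*, a neuronal transcription factor, or with a non-specific control siRNA, at 300 nM in both cases, and was collected after 48 h, with 3 samples in each of the 6 groups. Each line stands for 1 leukemia, and no untransfected cells were compared, so both groups of a line share the nucleofection. Total counts ranged from 7039594 to 16592492 per sample.

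*SOX11* itself was lower in every sample given its siRNA. In REH its level was 98.7, 97.4 and 93.1 CPM (counts scaled to a common library size, with the scaling set over all 18 samples) in the control samples and 47.7, 53.4 and 61.4 CPM in the knockdown samples. In 697 the control samples held 59.8, 59.8 and 59.3 CPM and the knockdown samples 32.6, 31.7 and 30.9 CPM. In RCH-ACV the values were 124, 136 and 133 CPM against 81.6, 78.8 and 86.8 CPM. Control and knockdown samples did not overlap in any line, and the log2 fold change was -0.83 ± 0.06 (SE, n = 3 per group) in REH, -0.91 ± 0.07 in 697 and -0.67 ± 0.05 in RCH-ACV (adjusted p = 1.5e-08, 2.2e-04 and 2.5e-06, edgeR quasi-likelihood F-test). The transcript was thus reduced by 43.8%, 46.9% and 37.1%, and a good part of it remained in every line.

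Of the 10 B-cell precursor markers, 9 lay above 10 CPM in REH and 10 in 697 and RCH-ACV. Their sum was 6178 to 6302 CPM in control and 6647 to 6715 CPM in knockdown samples of REH, 5172 to 5551 against 4496 to 4794 CPM in 697, and 5362 to 5580 against 4432 to 5312 CPM in RCH-ACV. The groups did not overlap in any line. Of the 9 markers tested in REH, 3 were called higher and 1 lower (4.65% of all genes were called). Of 10 tested in 697, 2 were lower (0.559%), and of 10 in RCH-ACV, 2 were higher and 2 lower (7.51%). Without RCH-ACV *SOX11* siRNA replicate 3, 2 were higher and 3 lower there, where 18.9% of all genes were called. By contrast, the 5 T-cell markers found in the tables summed to at most 0.349 CPM in any sample. Of the 6 myeloid markers, *FCGR1A* was at 0 in all lines, and their sum lay between 2.35 and 31.1 CPM. In REH this sum was 15.1 to 17.0 CPM in control and 9.49 to 11.01 CPM in knockdown samples, mostly from *MPO*. Of the 2 myeloid markers tested in REH, 1 was called lower. The sum of 6 stromal and neural markers lay between 16.3 and 206 CPM and was mostly *PDGFRB*, with 1 marker, *COL1A1*, called lower in REH, while *OLIG2* and *DCX* were at 0 in every sample. The part of these markers in the results was not tested. Each sample was also set against the mean of the other 2 of its group, over 8223 genes on the log2 scale. In RCH-ACV, *SOX11* siRNA replicate 3 lay farther off (SD 0.146) than the other replicates (0.1004 and 0.108). In 697, so did control replicate 1 (0.197, against 0.135 and 0.149) and *SOX11* siRNA replicate 3 (0.172, against 0.118 and 0.134). Without RCH-ACV *SOX11* siRNA replicate 3, 18.9% of all genes tested in that line passed the threshold, so that list counts for RCH-ACV are given with and without this sample. In 697 the calls of the receptor and pathway lists were the same genes without either of its samples.

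**Figure D1:**
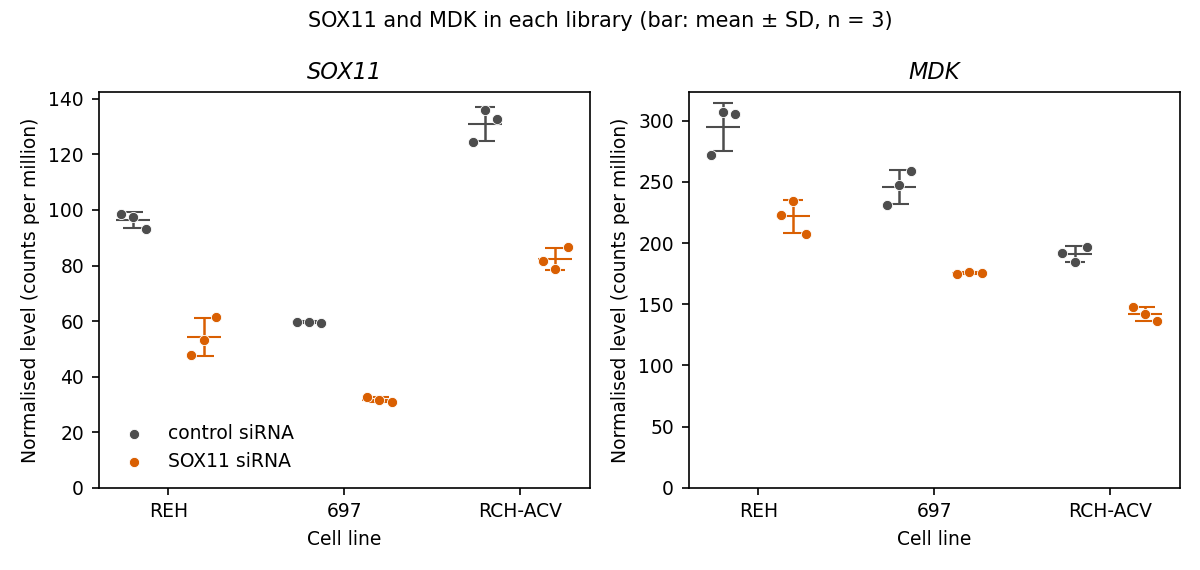
Level of *SOX11* (left) and *MDK* (right) in CPM in each library of the 3 cell lines. Points are samples and bars the mean ± SD of 3 samples; in all lines the knockdown samples (orange) lie below the control samples (grey) for both genes, and *MDK* is highest in REH and lowest in RCH-ACV while *SOX11* is highest in RCH-ACV.

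*MDK* lies on hg19 chr11:46402306-46405387 on the plus strand. In REH it was at 272, 307 and 305 CPM in control samples and at 223, 235 and 208 CPM in knockdown samples. In 697 it was at 231, 247 and 259 CPM in control and at 175, 176 and 176 CPM in knockdown samples. In RCH-ACV the values were 192, 184 and 197 CPM against 148, 142 and 137 CPM. The lowest control sample lay above the highest knockdown sample in each line. The mean was 24.7% lower in REH, 28.6% lower in 697 and 25.7% lower in RCH-ACV. These falls, as log2 fold changes, were -0.41 ± 0.05 (SE), -0.49 ± 0.06 and -0.43 ± 0.05. *MDK* was chosen by its lower values in every line, and this choice favours groups that lie apart. Whether the size of the fall differed between the lines was not tested. In these bulk samples, fewer cells that make a transcript and less transcript per cell cannot be told apart. As background, an adjusted p-value of 0.05 was passed by 7.51% of the 12963 genes tested for RCH-ACV, by 4.65% of 12787 for REH and by 0.559% of 12169 for 697. Over all tested genes the log2 fold change had a median of 0.0049 in RCH-ACV, -0.0022 in REH and -0.0038 in 697. Without the RCH-ACV knockdown replicate 3 the *MDK* log2 fold change was -0.41 ± 0.04, and in 697 it was -0.53 ± 0.05 without control replicate 1 and -0.48 ± 0.07 without knockdown replicate 3.

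All 7 RefSeq transcripts of *MDK* were counted, and they gave the same picture because they share nearly all of their reads. Over all 18 samples NM_001270550 had the highest total, with 15429 counts in REH, 9946 in 697 and 9585 in RCH-ACV. Apart from NM_001270552, the other transcripts held at least 98.5% of its counts in each line, and in RCH-ACV NM_001270551 was slightly above it (100.1%). NM_001270552 had the lowest share, 92.8% for REH, 92.1% for 697 and 92.6% for RCH-ACV. Over the 7 transcripts the log2 fold change lay between -0.41 and -0.39 in REH, between -0.49 and -0.48 in 697 and between -0.45 and -0.43 in RCH-ACV.

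The widest gap between *MDK* transcripts was that between NM_001270550 and NM_001270552. The reads counted on the first beyond those on the second made up 5.80%, 9.06% and 7.51% of the NM_001270550 counts in the REH control samples and 7.13%, 5.84% and 6.22% in the knockdown samples. In 697 they were 6.64%, 8.62% and 8.39% in control and 9.59%, 7.63% and 6.97% in knockdown samples. In RCH-ACV they were 6.005%, 6.20% and 8.15% against 9.07%, 7.85% and 7.19%. The groups overlapped in every line. A two-sided exact permutation test gave p = 0.5 in REH, 0.9 in 697 and 0.3 in RCH-ACV, but with 3 against 3 it cannot go below 0.1, so it cannot show whether the share shifted. Which transcript of *MDK* the cells used cannot be read from counts that overlap in this way.

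The genes beside *MDK* are given with their places and levels, and whether any of their reads were counted on *MDK* was not tested. The last 49 bases of *MDK* overlap *CHRM4*, a muscarinic acetylcholine receptor gene on the opposite strand. *CHRM4* held at most 2 counts in any sample. *DGKZ*, which encodes a diacylglycerol kinase, ends 201 bases before *MDK* on the same strand. It was at 30.5 CPM in REH, 29.1 CPM in 697 and 31.6 CPM in RCH-ACV control samples, far below *MDK*, and its log2 fold change was 0.08 ± 0.07, -0.07 ± 0.12 and 0.06 ± 0.10 (adjusted p = 0.672, 0.965 and 0.756). *ATG13*, an autophagy gene and the highest per length of the 6 genes listed beside *MDK*, had control levels of 25.1 RPKM in REH, 16.6 RPKM in 697 and 12.4 RPKM in RCH-ACV. None of the 4 neighbours tested passed the threshold in any line, beside 4.65% of all genes for REH, 0.559% for 697 and 7.51% for RCH-ACV. So few were tested that this does not set them apart from the rest. Their log2 fold changes ranged from -0.08 to 0.20 in REH, from -0.46 to 0.02 in 697 and from -0.12 to 0.06 in RCH-ACV.

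*MDK* was among the most abundant transcripts of these cells. To compare genes, CPM was divided by the length of the MANE Select transcript in GENCODE (RPKM), an approximation because the length of the RefSeq transcript was not used. On this scale the control level of *MDK* was 355 RPKM in REH, 296 RPKM in 697 and 230 RPKM in RCH-ACV. It lay above 99.3% of the 12120 genes ranked for REH, above 98.5% of 11556 for 697 and above 98.3% of 12305 for RCH-ACV, where the median gene was at 10.8, 11.7 and 10.5 RPKM.

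The control samples of the lines did not overlap in *MDK*, in the order REH, 697 and RCH-ACV. REH was at 295 ± 20 CPM (SD, n = 3), 697 at 246 ± 14 CPM and RCH-ACV at 191.1 ± 6.3 CPM. REH exceeded 697 by 1.199-fold (log2 difference 0.26 ± 0.05 SE, adjusted p = 1.0e-04), REH exceeded RCH-ACV by 1.54-fold (0.62 ± 0.05, adjusted p = 1.1e-10), and 697 exceeded RCH-ACV by 1.29-fold (0.36 ± 0.06, adjusted p = 2.7e-06). Of 14026 genes tested, 75.6% differed between REH and 697, 73.5% between REH and RCH-ACV and 63.7% between 697 and RCH-ACV, so that a difference between lines was the rule rather than a trait of *MDK*. *SOX11* had another order, with RCH-ACV at 131.0 ± 6.1 CPM, REH at 96.4 ± 2.9 CPM and 697 at 59.65 ± 0.28 CPM. The line with the most *SOX11* thus had the least *MDK*, but 697, with the least *SOX11*, lay between the other lines in *MDK*. Whether these genes are related over the lines was not tested.

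*PTN*, the other ligand, was close to absent. It had 0 counts in the 12 samples of REH and 697 and 1 count in the 6 samples of RCH-ACV. A total of 0 allows a level of up to 0.050 CPM in REH and 0.063 CPM in 697 (3 counts over the 6 samples, counting error only). Of the 2 ligands, midkine was therefore the one detected in these lines.

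**Figure D2:**
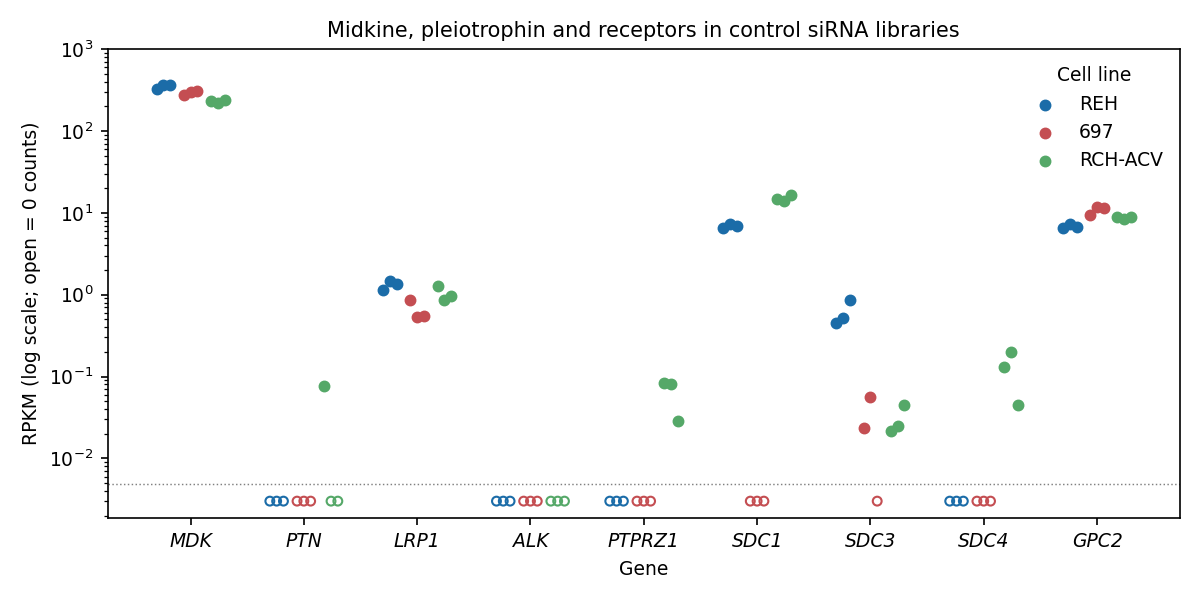
Level per length (RPKM, log axis) of *MDK*, *PTN* and the receptor genes in the control siRNA samples, 3 points per line. Open circles under the dotted line stand for samples with 0 counts and have no place on the axis; *MDK* lies above 200 RPKM in all lines, *GPC2* and *LRP1* are counted in all lines, and *SDC1* is at 0 in 697.

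The receptors present differed between the lines. A gene was taken as counted in a line where at least 1 sample had more than 3 counts. By this measure 5 of the 9 genes were counted in REH (*MDK*, *LRP1*, *SDC1*, *SDC3* and *GPC2*), 3 in 697 (*MDK*, *LRP1* and *GPC2*) and 6 in RCH-ACV (*MDK*, *LRP1*, *PTPRZ1*, *SDC1*, *SDC4* and *GPC2*). *LRP1* and *GPC2* were the receptors counted in all 3 lines. Above 1 RPKM in control samples, only *GPC2* of the 8 genes other than *MDK* was found in all lines.

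The receptors with signalling domains of their own were few. *ALK*, the tyrosine kinase of anaplastic lymphoma and neuroblastoma, had 0 counts in REH and 697 and 2 counts in RCH-ACV, both in 1 knockdown sample. *PTPRZ1*, a phosphatase of glial cells that midkine and pleiotrophin bind through its chondroitin sulfate chains, had 0 counts in REH and 697. In RCH-ACV it had 6, 5 and 2 counts in control and 4, 5 and 2 counts in knockdown samples. This amounts to 0.52 ± 0.25 CPM in the control samples, or 0.064 RPKM, and the 2 groups overlapped. The ratio of knockdown to control was 0.628, with a 95% exact counting interval from 0.255 to 1.52 (two-sided exact permutation test over samples, p = 0.3).

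*LRP1*, a large endocytic receptor that also passes on growth signals of midkine, was counted in every sample. In REH it was at 17.1, 21.7 and 19.9 CPM in control and at 19.0, 12.8 and 16.8 CPM in knockdown samples. In 697 it was at 12.9, 7.93 and 8.11 CPM against 9.16, 7.66 and 6.96 CPM. In RCH-ACV it was at 19.0, 12.7 and 14.3 CPM against 11.1, 12.4 and 15.0 CPM. The mean was lower with *SOX11* siRNA in the 3 lines, but the groups overlapped in each. The log2 fold changes, -0.25 ± 0.12 for REH, -0.30 ± 0.20 for 697 and -0.27 ± 0.14 for RCH-ACV, did not pass the threshold (adjusted p = 0.277, 0.814 and 0.278). Averaged over the lines in 1 fit, a contrast added after the data were seen, it was -0.28 ± 0.10 (edgeR, adjusted p = 0.123), where 6.45% of 14026 genes passed. The difference in 697 rested on control replicate 1, without which the log2 fold change was -0.03 ± 0.19 (adjusted p = 0.974). Without the RCH-ACV knockdown replicate 3 the value there was -0.37 ± 0.14 (adjusted p = 0.0524).

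Because the *LRP1* transcript is long, these counts stand for a low level of 1.31 RPKM in REH, 0.646 RPKM in 697 and 1.03 RPKM in RCH-ACV. This placed *LRP1* above 11.5%, 3.93% and 8.99% of the genes ranked in each line. REH exceeded 697 by 2.03-fold (log2 difference 1.01 ± 0.18, adjusted p = 1.4e-05), and 697 was below RCH-ACV (log2 difference -0.66 ± 0.19, adjusted p = 0.0036), although the samples of these 2 lines overlapped. REH and RCH-ACV overlapped and did not pass the threshold (0.35 ± 0.16, adjusted p = 0.0534).

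Among the proteoglycans, *SDC1* showed the widest contrast between lines. It encodes syndecan-1 (CD138), a heparan sulfate proteoglycan best known as the surface marker of plasma cells. In REH it was at 20.6, 23.0 and 22.1 CPM in control and at 21.7, 18.4 and 19.0 CPM in knockdown samples. In RCH-ACV it was at 46.3, 44.2 and 52.3 CPM against 52.0, 47.9 and 40.7 CPM. In 697 all 6 samples had 0 counts, which allows a level of up to 0.063 CPM. Set against a floor of 3 counts over the 3 control samples of 697, *SDC1* was at least 163-fold higher in REH and at least 354-fold higher in RCH-ACV. RCH-ACV exceeded REH with no overlap (log2 difference of REH from RCH-ACV -1.12 ± 0.10, adjusted p = 9.8e-10). With 0 counts in 697, *SDC1* was in the joint test only through the lines that express it, and had to differ there. The knockdown groups overlapped in both expressing lines, and the log2 fold change was -0.14 ± 0.09 in REH and -0.02 ± 0.09 in RCH-ACV (adjusted p = 0.474 and 0.908).

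*SDC3*, a syndecan of neural tissue, was counted in REH. It had 25, 35 and 35 counts in the control samples (2.38, 2.74 and 4.53 CPM) and 28, 21 and 24 counts in the knockdown samples (2.69, 2.77 and 2.30 CPM). The groups overlapped (log2 fold change -0.25 ± 0.25, adjusted p = 0.673), and without control replicate 3, which was the highest, the value was 0.0040. In 697 and RCH-ACV *SDC3* had 5 counts each over 6 samples. Its control level in REH was 22.8 times that in 697 by summed counts (95 against 3 counts, exact counting interval 7.57 to 112). It passed the filter on low counts in the joint test through REH alone, so that this difference was bound to be found.

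*SDC4*, a syndecan of adhesion sites, had 0 counts in REH and 697. In RCH-ACV it had 3, 4 and 1 counts in control samples (0.342, 0.520 and 0.116 CPM) and 7, 9 and 5 counts in knockdown samples (0.884, 0.538 and 0.546 CPM). The knockdown samples were all above the control samples, but with such low counts the ratio of 1.95 had a 95% exact counting interval from 0.828 to 5.08. The two-sided exact permutation test over samples gave p = 0.1, the smallest it allows.

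*GPC2*, a glypican of the developing nervous system that is also found on neuroblastoma cells, was found in all 18 samples, at 14.7 to 30.4 CPM. In REH it was at 16.8, 18.5 and 17.2 CPM in control and at 16.2, 17.3 and 18.7 CPM in knockdown samples. In 697 it was at 23.96, 30.4 and 29.2 CPM against 29.4, 29.8 and 17.8 CPM, and in RCH-ACV at 22.9, 21.4 and 22.6 CPM against 23.0, 21.1 and 14.7 CPM. In 697 and in RCH-ACV knockdown replicate 3 was low and the other samples of both groups overlapped. The log2 fold change was -0.01 ± 0.09 in REH, -0.12 ± 0.18 in 697 and -0.18 ± 0.12 in RCH-ACV (adjusted p = 0.975, 0.961 and 0.421), and -0.11 ± 0.09 averaged over the lines (adjusted p = 0.586). Without the knockdown replicate 3 of its line, the value was -0.04 ± 0.09 in RCH-ACV and turned to 0.10 ± 0.12 in 697.

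Per length, *GPC2* was at 6.88 RPKM in REH, 10.9 RPKM in 697 and 8.76 RPKM in RCH-ACV control samples, above 37.9%, 47.7% and 44.9% of the genes ranked. In 697 it was the most abundant of the receptor genes, and *SDC1* was in RCH-ACV, at 15.0 RPKM. In REH *SDC1* (6.92 RPKM) and *GPC2* (6.88 RPKM) stood at nearly the same level. REH was below 697 in *GPC2* (log2 difference -0.66 ± 0.15, adjusted p = 3.8e-04). REH was also below RCH-ACV, at the edge of the threshold (-0.34 ± 0.15, adjusted p = 0.0471, past it in none of the 6 sets with 1 sample left out), and 697 and RCH-ACV did not pass it (0.31 ± 0.15, adjusted p = 0.0735).

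**Figure D3:**
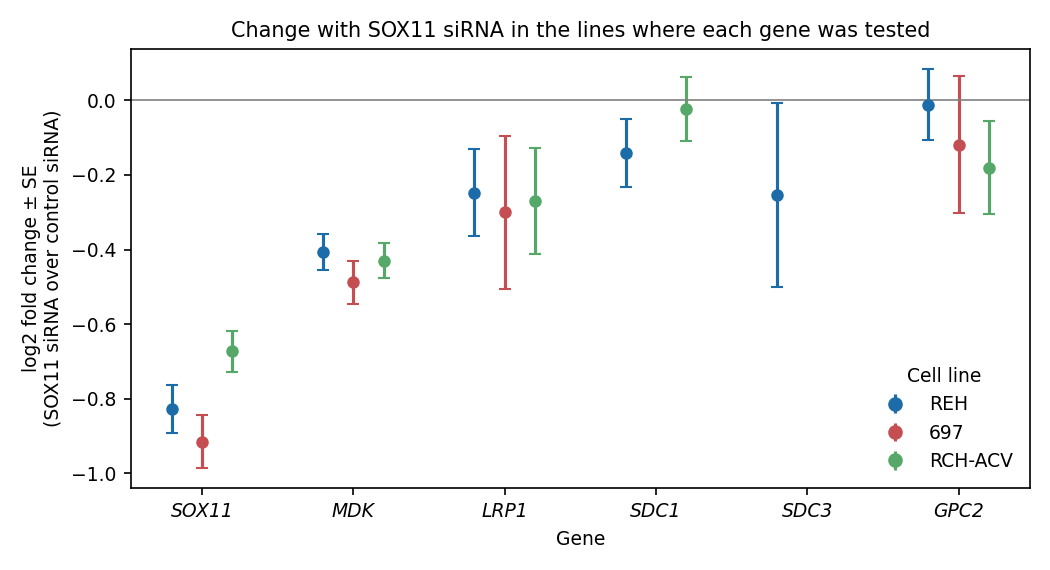
log2 fold change of *SOX11* siRNA over control siRNA with its standard error (n = 3 per group) in each line where the gene passed the filter on low counts. *SOX11* and *MDK* (the latter chosen for this) lie below 0 in all lines, while *LRP1*, *SDC1*, *SDC3* and *GPC2* did not pass the threshold in any line.

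Thus, of the genes other than *MDK*, REH had 4 that were tested, 697 had 2 and RCH-ACV had 3. Of these, 0 passed the threshold with *SOX11* siRNA, beside 4.65% of all genes for REH, 0.559% for 697 and 7.51% for RCH-ACV. So few were tested that 0 calls do not set them apart from the rest. At an unadjusted p below 0.05 in edgeR there was 1 of them, *LRP1* in REH. None passed in a single line under DESeq2 or any other alternative run. For the receptors counted in all lines, *LRP1* and *GPC2*, the test of a difference in response between lines did not pass the threshold (interaction of siRNA and line, adjusted p = 1.00 and 0.956), and 0.734% of all genes passed it.

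Beyond these, 20 other genes have been proposed as midkine receptors or binding partners. Above 1 RPKM in control samples were 10 of them for REH, 8 for 697 and 11 for RCH-ACV, with 7 above it in all lines: *LRP6*, *LRP8*, *NOTCH2*, *ITGA4*, *ITGB1*, *NCL* and *AGRN*. Nucleolin (*NCL*), a nucleolar protein that can carry midkine to the nucleus, was the highest per length with 445 RPKM in REH, 611 RPKM in 697 and 604 RPKM in RCH-ACV. With *SOX11* siRNA 2 of 13 tested genes were higher and 0 lower in REH (4.65% of all genes were called), 0 of 8 were called in 697 (0.559%), and 1 of 12 was lower in RCH-ACV (7.51%). Without RCH-ACV knockdown replicate 3 it was 2 higher and 4 lower, among them *LRP6*, *LRP8*, *NCL*, *NOTCH2* and *NRP1*, where 18.9% of all genes were called. With all samples the median log2 fold change of the list was -0.02, 0.0020 and -0.10, respectively.

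The genes called in the full set were the integrins of the α4β1 pair, an adhesion receptor of lymphoid cells that midkine can bind. *ITGA4* rose in REH from 293.7 ± 2.5 to 342.3 ± 5.4 CPM (SD, n = 3; log2 fold change 0.23 ± 0.03, adjusted p = 1.3e-04), a call lost in 1 fit over the 18 samples (adjusted p = 0.0572). *ITGB1* rose in REH from 61.79 ± 0.45 to 78.0 ± 2.2 CPM (0.34 ± 0.05, adjusted p = 1.5e-04) and fell in RCH-ACV from 166.9 ± 3.4 to 143.8 ± 6.4 CPM (-0.21 ± 0.05, adjusted p = 0.0096). The groups did not overlap in either, and in 697 *ITGB1* was at 148.6 ± 6.7 and 140.8 ± 5.1 CPM (-0.08 ± 0.05, adjusted p = 0.804). The response of *ITGB1* differed between the lines (interaction, adjusted p = 2.6e-04). The call in RCH-ACV was lost in 4 of 6 sets with 1 sample left out (adjusted p up to 0.0698).

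Other heparan sulfate proteoglycans of this list did not share 1 pattern over the lines, and those given here were named after their values were seen. *SDC2* had 178 counts over the 6 samples of REH, 79 in RCH-ACV and 0 in 697. *GPC1* had 761 counts in REH and 387 in RCH-ACV against 18 in 697, and *GPC4* had 225 counts in REH and 0 in both other lines. *AGRN*, by contrast, was highest in 697, at 54.7 CPM against 24.4 CPM in REH and 39.2 CPM in RCH-ACV control samples. *SDC2* was at 3.7 ± 1.2 CPM in control and 2.22 ± 0.68 CPM in knockdown samples of REH (log2 fold change -0.77 ± 0.27, adjusted p = 0.110), and at 1.79 ± 0.57 and 1.04 ± 0.15 CPM in RCH-ACV (-0.82 ± 0.32, adjusted p = 0.136).

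Midkine binds to sulfated sugar chains, and the enzymes that build them were listed in 2 groups. Of 22 heparan sulfate genes, 10 were tested in REH with 0 higher and 1 lower (4.65% of all genes were called), 11 in 697 with 0 called (0.559%), and 12 in RCH-ACV with 0 higher and 2 lower (7.51%). Without RCH-ACV knockdown replicate 3 it was 0 higher and 4 lower there, beside 18.9% of all genes. With all samples the median log2 fold change was -0.06, -0.0053 and -0.10. *NDST1*, which replaces acetyl by sulfate groups as a first step of chain modification, fell in REH from 121.5 ± 5.8 to 99.5 ± 1.1 CPM (log2 fold change -0.29 ± 0.05, adjusted p = 4.1e-04). It also fell in RCH-ACV, from 92.5 ± 2.2 to 81.1 ± 1.3 CPM (-0.19 ± 0.05, adjusted p = 0.0304). In 697 it was at 132.1 ± 6.7 and 109.0 ± 4.1 CPM with no overlap, which did not pass the threshold (-0.28 ± 0.06, adjusted p = 0.0736). The call in RCH-ACV was lost with the replicate number as a block (adjusted p = 0.0696), under DESeq2 (adjusted p = 0.114) and in 5 of 6 sets with 1 sample left out. *HS3ST3B1*, a 3-O-sulfotransferase, fell in RCH-ACV from 62.86 ± 0.66 to 52.4 ± 1.2 CPM (-0.26 ± 0.06, adjusted p = 0.0096, lost in 2 of 6 sets with 1 sample left out). *HS2ST1*, a 2-O-sulfotransferase and the highest per length of the list, was at 25.9 RPKM in REH, 21.5 RPKM in 697 and 24.2 RPKM in RCH-ACV control samples and was not called in any line.

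Of 22 genes for the linker that joins chains to their core proteins and for chondroitin sulfate, 19 were tested in REH with 1 higher (4.65% of all genes were called), 17 in 697 with 0 called (0.559%) and 21 in RCH-ACV with 2 higher (7.51%), and 0 were lower. Without RCH-ACV knockdown replicate 3, 2 were higher and 5 lower there (*CHST15*, *CHSY1*, *DSE*, *FAM20B* and *XYLT1*), beside 18.9% of all genes, so the direction of this count rested on that sample. With all samples the median log2 fold change was -0.06, -0.03 and -0.09. *XYLT1* and *XYLT2* encode xylosyltransferases, which start both kinds of chain. *XYLT1* rose in REH from 110.6 ± 4.7 to 124.9 ± 4.1 CPM (log2 fold change 0.18 ± 0.05, adjusted p = 0.0224), a call lost in 4 of 6 sets with 1 sample left out, under DESeq2 (adjusted p = 0.068) and in 1 fit over the 18 samples (adjusted p = 0.407). *XYLT2* rose in RCH-ACV from 30.67 ± 0.58 to 41.0 ± 2.6 CPM (0.42 ± 0.07, adjusted p = 0.0021). *CHPF*, a chondroitin polymerizing factor, rose in RCH-ACV from 6.18 ± 0.17 to 10.8 ± 2.6 CPM (0.79 ± 0.17, adjusted p = 0.0073) and was at 0 in REH. *CHST15*, a chondroitin sulfotransferase, was the highest of this list per length at 43.0 RPKM in REH, 27.7 RPKM in 697 and 39.2 RPKM in RCH-ACV.

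Among 10 genes for receptor partners and shedding, 7 were tested for REH and 8 for each of the other two lines, and 1 fell in every line (4.65%, 0.559% and 7.51% of all genes were called). *ADAM10* encodes a membrane protease that releases the outer part of many surface proteins. It fell in REH from 211.0 ± 7.0 to 139.8 ± 5.3 CPM (log2 fold change -0.59 ± 0.04, adjusted p = 4.2e-09), in 697 from 358 ± 27 to 227 ± 12 CPM (-0.66 ± 0.06, adjusted p = 4.1e-04) and in RCH-ACV from 291 ± 13 to 221 ± 11 CPM (-0.40 ± 0.05, adjusted p = 8.3e-05). The groups did not overlap in any line. This list was chosen with earlier results of these data known, so the calls of *ADAM10* are given as a description. Without RCH-ACV knockdown replicate 3 *MMP14* was also lower in that line. No other gene of the list passed the threshold in the full set, among them *SDCBP*, the syndecan-binding protein syntenin, which was the highest per length at 46.4 RPKM in REH, 56.4 RPKM in 697 and 72.7 RPKM in RCH-ACV. The median of the list was -0.07, -0.06 and -0.03.

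Of 23 signalling genes that act downstream of these receptors, 22 were tested in each line. In REH 2 were higher and 0 lower, in 697 0 were called, and in RCH-ACV 2 were higher and 2 lower (4.65%, 0.559% and 7.51% of all genes were called), with a median log2 fold change of 0.06, -0.0070 and -0.02. In REH *PIK3CD*, a leukocyte catalytic subunit of PI3-kinase, rose from 253.3 ± 9.9 to 293 ± 12 CPM (0.21 ± 0.04, adjusted p = 0.0019), and *JAK1*, a kinase of cytokine receptors, rose from 141.7 ± 3.8 to 163.2 ± 7.5 CPM (0.21 ± 0.04, adjusted p = 0.0035). In RCH-ACV *FYN*, a Src-family kinase, fell from 103.6 ± 2.0 to 81.1 ± 1.8 CPM (-0.35 ± 0.05, adjusted p = 3.8e-04). *IRS2*, an adaptor of insulin receptor signalling, fell there from 34.4 ± 1.4 to 25.6 ± 3.2 CPM (-0.43 ± 0.09, adjusted p = 0.0058), a call lost without knockdown replicate 2 (adjusted p = 0.0550). Without RCH-ACV knockdown replicate 3, 2 genes were higher there (*AKT2* and *MAPK3*) and 4 lower, beside 18.9% of all genes. *AKT1*, the highest per length of the list at 64.8 RPKM in REH, 84.1 RPKM in 697 and 76.5 RPKM in RCH-ACV, was not called in any line.

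**Figure D4:**
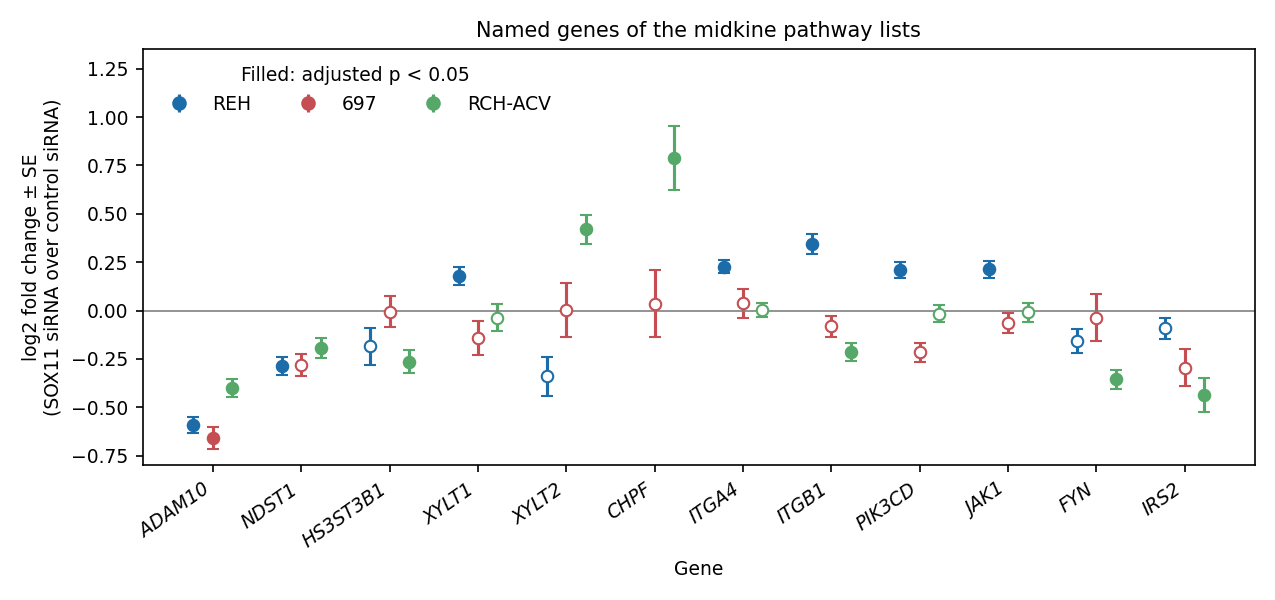
log2 fold change of *SOX11* siRNA over control siRNA with its standard error (n = 3 per group) for the named genes of the receptor, sugar chain, shedding and signalling lists. Filled points passed an adjusted p of 0.05 and open points did not; *ADAM10* is filled below 0 in all 3 lines, and *ITGB1* is filled above 0 in REH and below 0 in RCH-ACV.

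The 5 genes whose log2 CPM followed *MDK* most closely over the 18 samples, of 14026 tested, were *ZNF232* (Pearson r = 0.952), *NREP* (0.916), *MARCKSL1* (0.900), *TBC1D5* (0.899) and *FAM171A2* (0.897). These values hold the differences between lines as well as those between siRNAs, and samples of 1 line are alike, so they are given as a description. For deviations from the mean of each line, r was 0.899, 0.818, 0.947, 0.786 and 0.814. These deviations hold the lower values with *SOX11* siRNA by which *MDK* was chosen, so they too are only a description. *NREP*, for example, was at 347, 285 and 202 CPM in the control samples of REH, 697 and RCH-ACV and at 317, 206 and 142 CPM in the knockdown samples, the same order of lines as *MDK*.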

How the data were processed

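Reads were trimmed by the authors, mapped to hg19 with STAR 2.5.3a (reads with more than 2 places were discarded) and assigned to RefSeq transcripts by HOMER. The deposited values are raw counts, 1 table per line. The kit keeps strand, but the strand setting of the counting is not given in the sources used here. The tables hold 0 columns of other samples. Symbols matched 98.0% of transcripts. The main test was a fit per line in edgeR 4.0.16 (R 4.3.3) with TMM scaling, filterByExpr and the two-sided quasi-likelihood F-test, Benjamini-Hochberg adjusted over all genes tested, at a threshold of 0.05. Lines, and the interaction of line and siRNA, were tested in 1 fit over the 18 samples, which also set the CPM scale.

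The 9 genes, the lists and the tests were chosen with earlier results of these data known. Named genes were the 9 genes, *SOX11*, up to 2 called genes per list and line by smallest adjusted p, the highest per length of each list, and the 5 genes most like *MDK*. *SDC2*, *GPC1*, *GPC4*, *NRP1*, *CHSY1*, *DSE*, *FAM20B*, *MMP14*, *AKT2*, *MAPK3*, *COL1A1*, *DGKZ*, *CHRM4*, *LRP6*, *LRP8*, *NOTCH2*, *AGRN*, *MPO*, *PDGFRB*, *FCGR1A*, *OLIG2* and *DCX* were added after their values were seen. The same holds for *DNTT*, *MME* and *CD79A*. The study describes the replicates as independent biological ones. With 3 counts taken as the floor, a sample could show a level down to between 0.181 and 0.426 CPM, which covers counting error only. On simulated data the fits recovered 95% of genes changed 1.5-fold for REH, 93% for 697 and 94% for RCH-ACV. The interaction test recovered fewer, 73% of genes changed 1.5-fold by the siRNA in REH alone. The simulation changed only genes above a minimum mean count and gave every gene and line the same spread. Its recovery therefore does not hold for genes with low counts, such as *SDC3*, or for smaller changes. It need not hold for 697 either. Samples there differed from the others of their group by an SD of 0.118 to 0.197 (log2), against 0.096 to 0.112 in REH.

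The alternatives tried were library size alone, RLE size factors, DESeq2 1.42.0, a replicate block, no filter on low counts, CPM above 1 in at least 3 samples, 1 fit over the 18 samples, *MDK* transcripts apart, and leaving out each sample. A choice of transcript within each line and the contrast averaged over lines were added once the data had been seen. Tables and figures were made with matplotlib 3.10.9, pandas 2.3.3, scipy 1.17.1 and numpy 2.4.6 under Python 3.11.15.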

Additional observations from a re-analysis of the deposited data

Results flagged for a closer look

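The response to *SOX11* siRNA differed between the lines for 3 genes of the lists, by the test of the interaction of siRNA and line in edgeR. Over all 14026 genes, 103 (0.734%) passed it, and the lists were chosen with earlier results of these data known. For *ITGB1* the adjusted p was 2.6e-04, and it was past the threshold in all 24 alternatives that gave a value. For *PIK3CD* the adjusted p was 0.0035: the log2 fold change was 0.21 ± 0.04 in REH, -0.22 ± 0.05 in 697 (adjusted p = 0.104) and -0.02 ± 0.04 in RCH-ACV (adjusted p = 0.871), and it was past the threshold in all 24 alternatives. For *XYLT2* the adjusted p was 0.030, with a log2 fold change of -0.34 ± 0.10 in REH (adjusted p = 0.0583), 0.0021 ± 0.14 in 697 (adjusted p = 1.00) and 0.42 ± 0.07 in RCH-ACV. The *XYLT2* interaction was past the threshold in only 11 of 24 alternatives and lost with library size alone (adjusted p = 0.051), with the replicate block (adjusted p = 0.205) and in 11 of 18 sets with 1 sample left out.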

How the results depend on the processing

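The *MDK* log2 fold change, whose sign was fixed by the choice of the gene, lay within -0.46 to -0.41 for RCH-ACV, -0.53 to -0.44 for 697 and -0.46 to -0.36 for REH. None of the other 8 genes was called in a single line by any alternative; *SDC2*, of the further list, was called in REH in 2 of 15. For the average over lines, *LRP1* was called with no filter on low counts (adjusted p = 0.0084) and otherwise not. Between lines, *GPC2* (REH against RCH-ACV) and *LRP1* (REH against RCH-ACV) sat at the threshold, past it in 5 of 12 alternatives each.

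Counts of called genes moved by more than 1.5 times as follows. For 697 the 68 genes became 119 with no filter on low counts, 29 with the replicate block and 189 in 1 fit over the 18 samples. For RCH-ACV the 973 became 577 under DESeq2. For REH the 594 became 315 under DESeq2 and 228 in 1 fit over the 18 samples. The 103 interaction calls became 276 with no filter and 42 with the replicate block. With 1 sample left out the counts ranged from 25 to 70 (697), from 386 to 2479 (RCH-ACV, the highest without knockdown replicate 3), from 296 to 522 (REH) and from 57 to 179 (interaction). The cause was not tested.

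With 1 sample left out, these uncalled log2 differences changed sign: *GPC2* (-0.24 to 0.096 for 697 and -0.068 to 0.041 for REH), *SDC1* in RCH-ACV (-0.089 to 0.054), *SDC3* in REH (-0.41 to 0.0040), *SDC3* between control 697 and RCH-ACV (-1.15 to 0.31), *DGKZ* (-0.19 to 0.024 for 697 and -0.032 to 0.14 for RCH-ACV), *PIK3CD* in RCH-ACV (-0.052 to 0.014) and *XYLT2* in 697 (-0.14 to 0.11).

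Replicate numbers showed no steady pairing of the samples: deviations of same-numbered samples correlated between -0.41 and 0.38. With 3 samples per group this cannot exclude that same-numbered samples were handled together. With the number as a block, 458 of 594 calls were shared for REH, 29 of 68 for 697 and 690 of 973 for RCH-ACV. Taking the longest transcript of each gene was not run, as transcript lengths were not used. Depth limits *PTN*, *ALK*, *PTPRZ1* and *SDC4*, at 0 to 9 counts per sample.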
